A study of Drosophila melanogaster with 2 samples.

Results

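The cytosolic ribosomal protein genes of Drosophila melanogaster were examined for binding of Xrp1, a transcription factor with a basic leucine zipper and an AT-hook. The genes were taken from the Ensembl release 115 annotation of the dm6 genome by symbol (RpL or RpS followed by a digit or P), pseudogenes left out. This gave 92 genes, all protein-coding, among 18164 annotated genes on the 6 major chromosome arms. The assay was ChIP-seq, the sequencing of DNA that is pulled down with a protein, here by an anti-GFP antibody from whole embryos, aged 8 to 24 hours, of a strain with an insertion that tags Xrp1 with eGFP. The 2 biological replicates, with 1 technical replicate apiece, formed 1 group and both carried the tagged protein. Neither an untagged strain nor a stressed or mutant genotype was analysed here, and whole embryos mix all tissues, so that a peak at a gene bound in few cells and a weaker peak in all cells cannot be told apart. Peak lists were analysed and read depth was therefore unknown.

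Each ribosome joins a small subunit, which decodes mRNA, to a large subunit, which forms peptide bonds, and both subunits need nearly all of their proteins to work. Flies with a single working copy of one of these genes show the Minute phenotype of slow development and thin bristles, and Minute cells are outcompeted by wild-type neighbours in imaginal discs. In flies, Xrp1 is known as a factor that is raised in Minute cells and is needed for their slow growth and their loss, and RpS12 is needed for that rise. Ribosomal protein genes are also known for an unusual start site, the polypyrimidine or TCT initiator, in place of the common initiator.

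A gene was called occupied when the summit of a conservative peak, one of the 7534 on the 6 arms that the authors' irreproducible discovery rate (IDR) procedure kept across the replicates, lay within 500 bp of one of its annotated transcription start sites (TSSs). Occupied ribosomal protein genes numbered 44 of 92 (47.8%). The same rule called 20.0% of all 18164 genes and 23.2% of all 13945 protein-coding genes. Among the 73 mitochondrial ribosomal protein genes, whose products form the ribosome inside mitochondria, 30 (41.1%) were occupied, and among the 13853 other protein-coding genes 3190 (23.0%) were. The difference between the gene sets was described and not tested.

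DNA at the summits is shown first for 10 occupied genes, chosen because they carry the strongest peaks, a motif described below or, in RpS12, a gene that acts upstream of Xrp1 in flies. Each line gives the dm6 bases from 50 bp before to 50 bp after the strongest summit, written 5′ to 3′ on the strand of the gene, and capitals mark matches on either strand to the motifs searched below. RpL34b (3R:9401362-9401462), RpS20 (3R:20821976-20822076), RpL32 (3R:30046269-30046369) and RpS12 (3L:13023098-13023198) have no match. The other windows are RpL14 (3L:8600909-8601009), RpL23A (3L:1668672-1668772), RpS27 (3R:25247531-25247631), RpL7 (2L:10200989-10201089), RpS29 (3R:9778019-9778119) and RpL13 (2L:9967136-9967236). RpL34b, RpL32, RpL23A and RpS27 lie on the minus strand and the rest on the plus strand.
RpL34b: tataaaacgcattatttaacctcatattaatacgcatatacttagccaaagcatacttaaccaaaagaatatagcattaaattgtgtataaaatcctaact
RpS20: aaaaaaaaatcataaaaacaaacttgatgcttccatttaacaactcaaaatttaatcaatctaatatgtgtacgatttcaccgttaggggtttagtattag
RpL32: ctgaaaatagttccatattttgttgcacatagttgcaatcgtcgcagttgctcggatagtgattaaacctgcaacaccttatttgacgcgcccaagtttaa
RpS12: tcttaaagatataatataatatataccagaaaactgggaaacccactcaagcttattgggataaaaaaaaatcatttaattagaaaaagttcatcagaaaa
RpL14: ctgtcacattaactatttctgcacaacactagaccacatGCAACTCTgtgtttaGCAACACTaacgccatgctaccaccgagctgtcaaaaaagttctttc
RpL23A: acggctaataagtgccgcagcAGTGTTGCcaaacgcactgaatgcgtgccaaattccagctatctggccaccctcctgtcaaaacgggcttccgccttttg
RpS27: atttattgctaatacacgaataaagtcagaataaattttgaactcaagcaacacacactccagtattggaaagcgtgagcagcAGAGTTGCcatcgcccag
RpL7: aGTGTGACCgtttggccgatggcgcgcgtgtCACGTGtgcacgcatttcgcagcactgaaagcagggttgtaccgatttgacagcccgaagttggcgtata
RpS29: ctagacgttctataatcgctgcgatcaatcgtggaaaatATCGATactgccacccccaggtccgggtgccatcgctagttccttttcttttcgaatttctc
RpL13: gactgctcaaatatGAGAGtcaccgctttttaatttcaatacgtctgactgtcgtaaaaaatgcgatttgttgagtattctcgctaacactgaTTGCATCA

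The windows of RpL34b, RpS20 and RpS12, whose summits lie over 100 bp upstream of the start site, had a GC content of 25.7%, 26.7% and 24.8%. RpL32 and RpL13, also over 100 bp upstream, had 40.6% and 37.6%. GC content was 42.6% in the window of RpL14, 54.5% in that of RpL23A and 56.4% in that of RpL7, whose summits lie within 100 bp of the start site. The matches are GCAACNCT in RpL14, which holds it at 2 places, and in RpL23A and RpS27, where it reads on the opposite strand. RpL7 holds the E-box CACGTG and the Motif 1 core GGTCACAC, RpS29 holds the DRE core ATCGAT, and RpL13 holds the C/EBP-ATF composite TTGCATCA beside GAGAG.

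Start sites are shown for 7 occupied genes with a TCT initiator, to let the pyrimidine run be seen. Each line gives 31 bases of the gene's strand with an annotated TSS in the middle, and capitals mark the initiator. It was searched as TCTTTC or as TCTTTT, and each also with a leading C for the leading T. The windows are RpL32 (3R:30046146-30046176), RpL14 (3L:8600991-8601021), RpL23A (3L:1668639-1668669), RpL7 (2L:10201085-10201115), RpS29 (3R:9778082-9778112), RpS27 (3R:25247457-25247487) and RpLP1 (2L:419937-419967).
RpL32: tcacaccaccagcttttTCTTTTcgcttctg
RpL14: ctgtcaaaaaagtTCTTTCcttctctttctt
RpL23A: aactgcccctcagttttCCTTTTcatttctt
RpL7: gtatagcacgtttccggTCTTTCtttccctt
RpS29: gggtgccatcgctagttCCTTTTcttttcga
RpS27: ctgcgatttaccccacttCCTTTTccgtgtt
RpLP1: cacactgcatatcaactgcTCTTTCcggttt

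**Figure D1:**
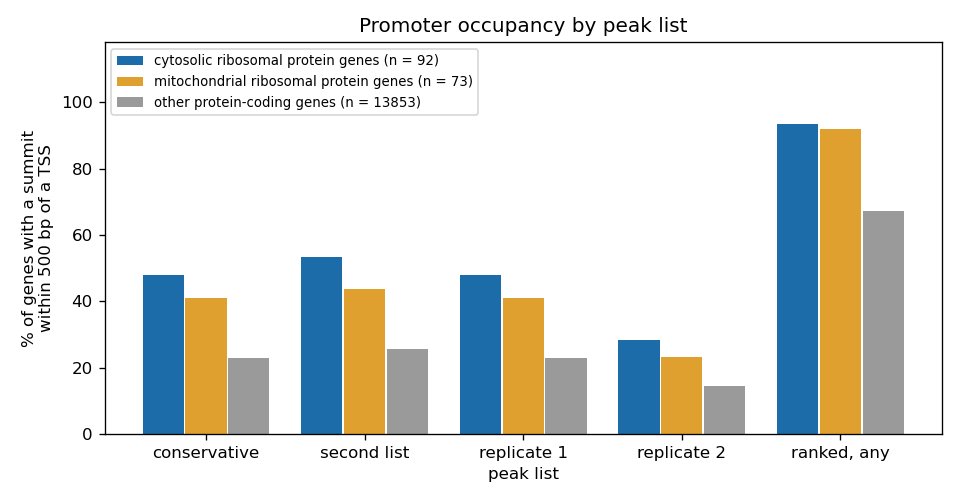
Share of genes (y axis, %) with a summit within 500 bp of a TSS in 5 peak lists (x axis), for cytosolic ribosomal protein genes, mitochondrial ribosomal protein genes and other protein-coding genes. The cytosolic set has the tallest bar in each list, with 47.8% in the conservative list and 28.3% in replicate 2's own list, and the mitochondrial set follows with 41.1% and 23.3%.

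Ribosomal protein genes were also occupied at above the background share in each replicate's own thresholded list, with fewer genes in the shorter list of replicate 2. In replicate 1, with 7520 peaks, 44 of 92 genes (47.8%) had a summit within 500 bp, beside 23.0% of all protein-coding genes. In replicate 2, with 4401 peaks on the arms, 26 of 92 (28.3%) had one, beside 14.6% of all protein-coding genes. The own lists shared 22 genes, which is 50% of replicate 1's and 84.6% of replicate 2's. Among the ranked peaks of the replicate comparison, to which no threshold was applied, 86 of 92 genes (93.5%) had a summit within 500 bp, beside 67.3% of all protein-coding genes.

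Among genes whose peaks passed the threshold, ribosomal protein genes carried weaker peaks than other genes. The signal, the authors' own value for a peak, had a median of 97.0 at the 44 occupied ribosomal protein genes, against 146 at the 3190 other occupied protein-coding genes, and it was 141 at the 30 mitochondrial ribosomal protein genes. By rank in the conservative list, 6 ribosomal protein genes (13.6%) had a strongest peak at ranks 1 to 1884, 9 at ranks 1885 to 3767, 13 at ranks 3768 to 5650 and 16 (36.4%) at ranks 5651 to 7534. Other protein-coding genes ran the opposite way, with 1091 (34.2%) at ranks 1 to 1884 and 572 (17.9%) at ranks 5651 to 7534. In the ranked list without a threshold the direction turned, with a median of 70.7 at the 86 ribosomal protein genes with a peak, against 46.7 at 9303 other protein-coding genes. The signal says how a peak ranks within its list and has no stated scaling to depth.

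**Figure D2:**
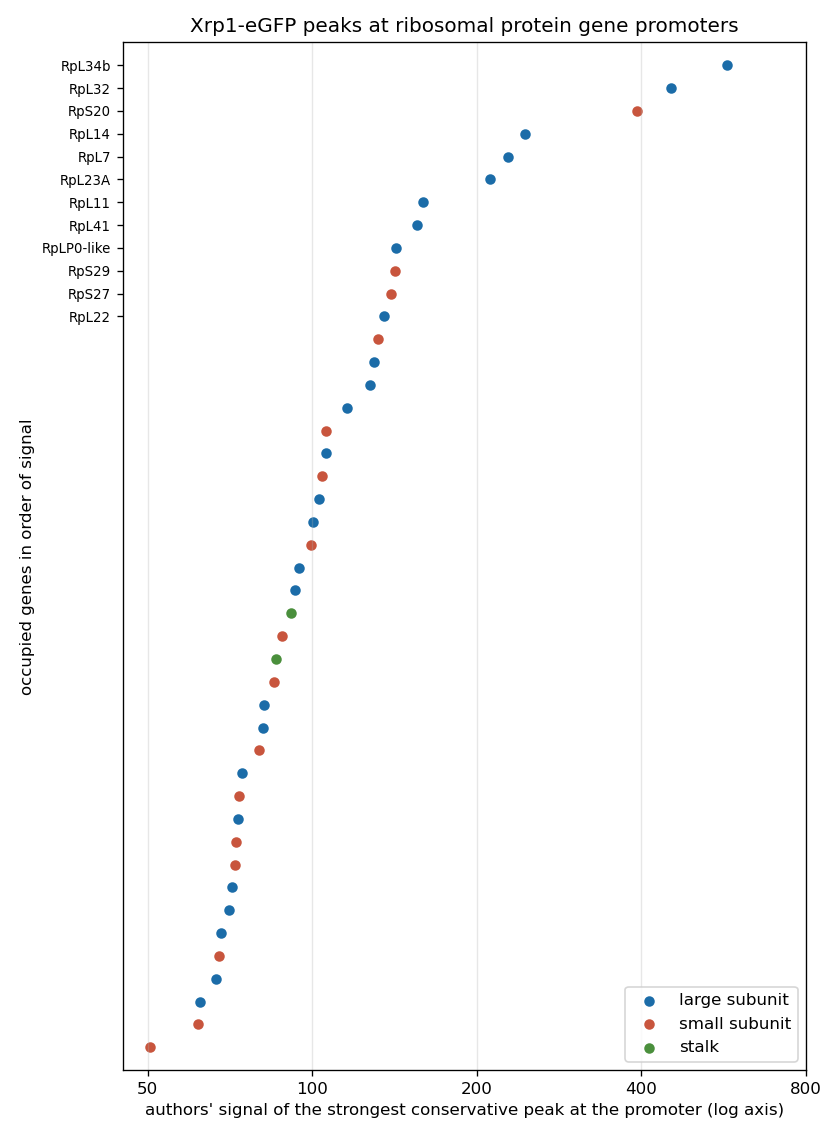
Authors' signal of the strongest conservative peak (x axis, log scale) at each of the 44 occupied ribosomal protein genes (y axis, in order of signal, the 12 strongest named), coloured by large subunit, small subunit or stalk. RpL34b, RpL32 and RpS20 stand to the right of the rest at 575, 453 and 392, and the weakest has 50.5.

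Of the large subunit genes, counted by symbol alone, 26 of 51 (51.0%) were occupied, with a median signal of 104. RpL34b, 1 of 2 genes for the same large subunit protein, had the strongest peak, at rank 340 of the conservative list with a signal of 575. Its peak had a signal of 393 at rank 317 of replicate 1's ranked list and of 176 at rank 438 of replicate 2's. The summit lay 186 bp upstream of RpL34b, but only 83 bp from the start of CG8132, which shares the intergenic stretch. RpL32, whose mRNA is a common internal control in fly expression work, came next at 453. It had 298 at rank 556 in replicate 1 and 154 at rank 573 in replicate 2, and its summit, 158 bp upstream, was slightly nearer to the start of CG7943 at 151 bp. Both replicates thus placed these peaks among their strongest, and neither summit belonged to the ribosomal protein gene alone.

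RpL14, a Minute gene used to make competing cells, had a signal of 245 with its summit 47 bp upstream. The peak ranked 1680 at 153 in replicate 1 and 1492 at 90.0 in replicate 2. Nelf-E also started within 500 bp of its summit. RpL7 had 228 with the summit 35 bp downstream of its nearest start, inside the 5′ UTR. The start shown above with a TCT initiator lay further downstream. RpL7 ranked 2352 at 120 in replicate 1 and 1093 at 110 in replicate 2, and Ripalpha also started within 500 bp of its summit. RpL23A, whose protein sits at the exit of the peptide tunnel, had 212 at 68 bp upstream, and no other gene started within 500 bp of its summit. It ranked 2355 at 120 in replicate 1 and 1356 at 96.0 in replicate 2, so RpL7 and RpL23A stood higher in replicate 2 than in replicate 1.

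RpL11, which joins the large subunit with the 5S RNA, showed the opposite order. It had a signal of 159 at 184 bp upstream, and ranked 2280 at 122 in replicate 1 and 4655 at 40.4 in replicate 2, whose own thresholded list did not hold it. RpL41, the gene of a very short large subunit protein, had 156 at 23 bp upstream, in an intron of NaCP60E. It ranked 2494 at 114 in replicate 1 and 3768 at 47.4 in replicate 2. RpLP0-like, counted here by its symbol, had 142, with ranks of 3838 at 80.6 in replicate 1 and 2562 at 62.4 in replicate 2, and its summit was nearer to the start of 14-3-3zeta. RpL22 had 135, with ranks of 3816 at 80.8 in replicate 1 and 3368 at 51.2 in replicate 2. These 4 peaks lay within a narrow range of signal, and their order differed between the replicates.

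Among the weaker large subunit peaks, RpL26 had 129, RpL13 127, RpL17 115, RpL27 106, RpL8 103, RpL3 100, RpL19 94.6, RpL28 92.9, RpL27A 81.6 and RpL10Ab 81.4. RpL35 had 74.3, RpL24 73.2, RpL31 71.2, RpL10 70.4, RpL36 68.0, RpL37-1 66.8 and RpL30 62.2. RpL3 and RpL8 encode proteins near the peptidyl transferase centre and RpL10 one that joins late in assembly, and none of these stood out by signal. The peak of RpL13 lay in the 5′ UTR of Dref, the gene of the factor that binds the DRE, and is the same peak that marks Dref as occupied.

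Small subunit genes were occupied in 16 of 38 cases (42.1%), with a median signal of 86.6. RpS20 was the strongest at 392, with its summit 155 bp upstream of its only annotated start. The peak ranked 806 at 244 in replicate 1 and 725 at 136 in replicate 2. RpS20 itself had the nearest start, but CG17271 also started within 500 bp of the summit. RpS29 had 141 at 27 bp downstream and RpS27 139 at 67 bp upstream. RpS29 ranked 3277 at 91.8 in replicate 1 and 3681 at 48.3 in replicate 2, and RpS27 ranked 3829 at 80.7 in replicate 1 and 2756 at 59.4 in replicate 2. Below RpS20 the small subunit peaks formed a gradual series without a gap like the one above RpS29.

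The other occupied small subunit genes included RpS21 at 132, RpS25 at 106, RpS28a at 99.5, RpS4 at 88.0, RpS28b at 85.2 and RpS7 at 79.8. They were followed by RpS12 at 73.6, RpS15Aa at 72.4, RpS9 at 72.3, RpS24 at 67.5, RpS16 at 61.7 and RpS15 at 50.5. The stalk, with 3 genes, is the flexible arm that recruits translation factors to the large subunit. RpLP0 had a signal of 91.5 at 6 bp upstream of the nearer of its 2 annotated starts, inside its own 5′ UTR. RpLP1 had one of 85.8 at 172 bp downstream, in coding sequence. RpLP0 had 59.1 in replicate 1 and 31.4 in replicate 2, and RpLP1 40.1 in replicate 1 and 37.2 in replicate 2. RpLP2 was not occupied, and its strongest ranked peak reached 29.2.

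**Figure D3:**
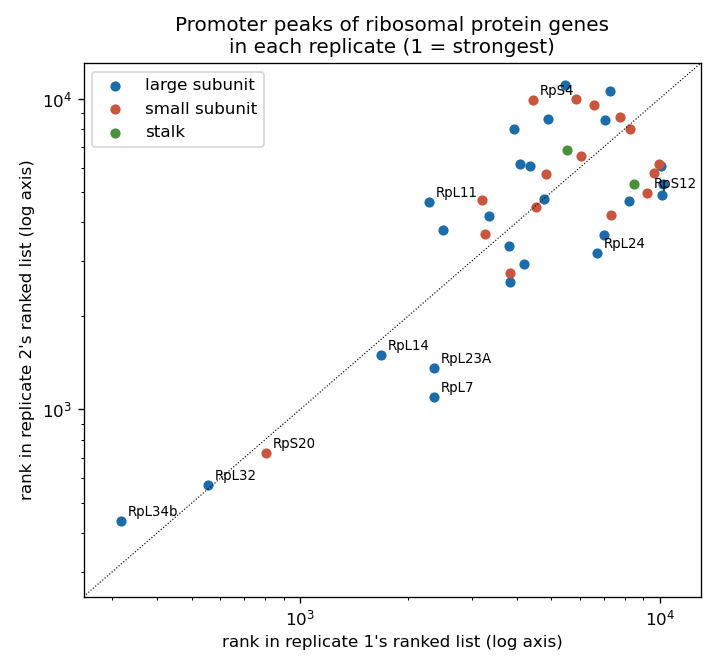
Rank of each occupied ribosomal protein gene's peak in the ranked list of replicate 1 (x axis) and of replicate 2 (y axis), both on log axes with 1 the strongest, and the dotted line marking equal rank. RpL34b, RpL32 and RpS20 lie in the lower left near the line at ranks 317 to 806, while RpS4 lies above it and RpL24 below it.

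The peaks of 43 of the 44 occupied genes lay in a ranked peak of both replicates, the exception being RpL27A, which had none in replicate 2. Over these 43 the median rank fell within the top 6.78% of replicate 1's list and the top 7.35% of replicate 2's, and the lowest-ranked lay at 14.3% of replicate 1's and 16.7% of replicate 2's. Summits in the replicates' lists lay a median of 14 bp (replicate 1) and 24 bp (replicate 2) from the conservative summit, and at most 113 and 139 bp. Ranks differed between the replicates at strong peaks such as that of RpL7 and at weak ones. RpS4 ranked 4444 in replicate 1 and 9898 in replicate 2, and RpL24 ranked 6700 in replicate 1 and 3186 in replicate 2. Of the 44, 7 overlapped neither replicate's own thresholded list (RpL10, RpL36, RpLP1, RpS15, RpS15Aa, RpS16 and RpS9), and their signals ran between 50.5 and 85.8.

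Of 17 genes that have served in Minute and cell competition work 6 were occupied (35.3%), beside 47.8% of all 92, namely RpL14, RpL8, RpL19, RpL27A, RpS12 and RpL36. RpL8 had a signal of 103, with 67.1 in replicate 1 and 39.9 in replicate 2. RpL19 had 94.6, with 65.8 in replicate 1 and 27.4 in replicate 2. RpL36 had 68.0, with 34.1 in replicate 1 and 37.1 in replicate 2, and RpL27A had 81.6, with 59.8 in replicate 1. All of these but RpL14 lay at rank 4643 or lower of the 7534 conservative peaks.

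RpS12 had 2 conservative summits, the stronger 204 bp upstream and the nearer 3 bp upstream of its start. The stronger peak had a signal of 73.6 at rank 6338 of the conservative list. It had 37.2 at rank 9217 in replicate 1, where it was outside the thresholded list, and 38.8 at rank 4973 in replicate 2, where it was inside. Adk2 also starts within 500 bp of this summit.

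The 11 genes of this list without a conservative promoter summit included several standard Minute genes. RpS3, whose mutants are a common source of Minute cells, had a strongest ranked peak of 33.8 at a global IDR of 0.593, with 31.9 in replicate 1 and 8.72 in replicate 2. RpS13 had 50.8, RpS26 53.8, RpS5a 52.8, RpS6 42.0, RpS18 40.8 and RpL5 14.7. RpS23 had 71.0, with 20.5 in replicate 1 and 54.6 in replicate 2. RpL38 and RpS2 had no ranked peak within 500 bp. Apart from RpS5a at a global IDR of 0.0239, none of these ranked peaks reached a global IDR of 0.05.

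Flies carry second copies of several ribosomal protein genes, often with restricted expression. The families here were grouped by symbol alone, and a like symbol, such as one ending in -like, need not mark a second copy. In the 13 families of like symbols, 11 of 27 genes were occupied (40.7%), against 33 of the 65 genes outside such families (50.8%). The families RpL34a/RpL34b, RpL10Aa/RpL10Ab, RpL37-1/RpL37-2, RpS15Aa/RpS15Ab, RpL22/RpL22-like, RpL24/RpL24-like and RpL7/RpL7-like each had 1 occupied member. RpL34b had 575 in the conservative list, whereas RpL34a had a ranked peak of 76.4, with 73.1 in replicate 1 and none in replicate 2. RpL22 had 135 and RpL22-like, known from the male germ line and the eye of adults, had no ranked peak within 500 bp. RpL10Ab had 81.4, with 59.6 in replicate 1 and 23.7 in replicate 2, and RpL10Aa had no ranked peak.

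In the other families of this kind, RpL37-1 had 66.8, with 46.2 in replicate 1 and 24.3 in replicate 2, and RpL37-2 had no ranked peak. RpS15Aa had 72.4, with 43.4 in replicate 1 and 27.1 in replicate 2, and RpS15Ab a ranked peak of 34.7. RpL24 had 73.2, with 49.8 in replicate 1 and 53.1 in replicate 2, and RpL24-like a ranked peak of 43.3. RpL7-like had a ranked peak of 63.6, well below the 228 of RpL7.

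Both RpLP0 and RpLP0-like were occupied, and so were RpS28a and RpS28b but not RpS28-like, whose ranked peak reached 25.0. RpS28a had 99.5, with 45.9 in replicate 1 and 43.7 in replicate 2, and RpS28b 85.2, with 54.5 in replicate 1 and 32.3 in replicate 2. The summit counted for RpS28a lay past the end of that gene, nearer to the start of Mgat2. No copy was occupied in RpS5a/RpS5b (ranked peaks of 52.8 and 44.9), RpS10a/RpS10b (53.8 and 55.2), RpS14a/RpS14b (46.7 and 37.4) or RpS19a/RpS19b (49.6 and 12.2). Copies within a family can share sequence, and how reads that fit both were placed is not given in the sources used here.

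**Figure D4:**
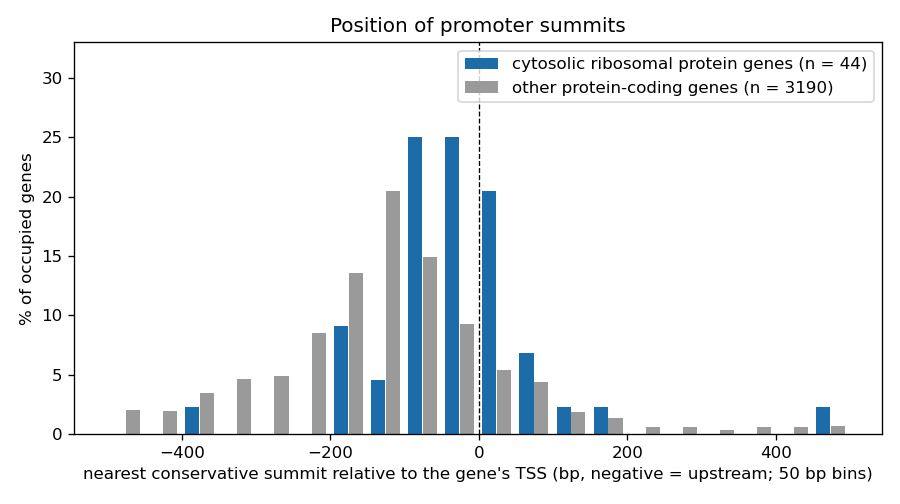
Distance of the nearest conservative summit from the TSS (x axis, bp in 50 bp bins, negative upstream) as a share of occupied genes (y axis, %), for 44 cytosolic ribosomal protein genes and 3190 other protein-coding genes. The ribosomal protein genes gather at the start site, with a median of -30.5 bp, and the other genes upstream of it, with a median of -123 bp.

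Conservative summits at ribosomal protein genes lay closer to the start site than at other genes. The nearest conservative summit had a median distance of -30.5 bp (interquartile range -80 to 24; negative values are upstream) at the 44 ribosomal protein genes. It was -123 bp (-203 to -47) at other occupied protein-coding genes and -130 bp at mitochondrial ribosomal protein genes. Within 100 bp of the start lay 34 of the 44 summits (77.3%), against 34.0% of those at other protein-coding genes. Upstream of the start lay 29 of 44 (65.9%), against 83.6% at other protein-coding genes. The gap was smaller over ranked peaks without a threshold, with medians of -18.5 bp at 86 ribosomal protein genes and -43 bp at 9303 others, and 58.1% against 61.6% upstream. The start is the nearest of each gene's annotated TSSs, of which 24 of the 44 genes had 2 or more. A summit upstream of that start can thus lie inside the gene, as at RpLP0 and RpL35. With the outermost TSS alone, 25 of the 44 ribosomal protein summits lay upstream.

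Weak peaks lay nearer the start in both sets, and weak peaks made up a larger share at ribosomal protein genes, so position was also compared by rank. At ranks 1 to 3767 of the conservative list the median distance of the strongest summit was -67 bp for 15 ribosomal protein genes and -142 bp for 1882 other protein-coding genes. At ranks 3768 to 7534 it was -20 bp for 29 ribosomal protein genes and -103.5 bp for 1308 other genes. The sets thus differed by over 70 bp in either range of ranks. Within each range the ribosomal protein genes still leaned to weaker peaks than the other genes, so signal was not held equal. The part of signal in the difference was not tested. Mitochondrial ribosomal protein genes had -137 bp at the higher ranks and -128 bp at the lower.

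By annotation, 22 of the 44 strongest summits were intergenic, 15 lay in a 5′ UTR, 6 in an intron and 1 in coding sequence. In 26 of the 44, another gene also started within 500 bp of the summit, and in 6 that gene's start was the nearer one (RpL34b, RpL32, RpLP0-like, RpL13, RpS28a and RpL10Ab). These 6 had a median signal of 135. The 18 genes with no other start within 500 bp had a median of 77.0, with RpL23A the strongest at 212 and RpL11 next at 159. Of all 92 genes, 46 had another gene's start within 500 bp of their outermost TSS. Of these 46, 26 were occupied (56.5%), against 18 of the 46 without one (39.1%). The share of shared summits at other occupied protein-coding genes was not counted. At RpS29 the only other start was that of a small nucleolar RNA annotated inside RpS29 itself. At the shared summits, binding at the ribosomal protein gene and at the other gene cannot be told apart.

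Just inside the 500 bp limit lay RpS28a at 476 bp downstream and RpL10Ab at 383 bp upstream. The RpS28a summit lay beyond the far end of that short gene, in the 5′ UTR of Mgat2 and 49 bp from the start of Mgat2. Among those outside it was RpS19b, with a summit of 264 in an intron of CG5854 at 902 bp upstream. Within 2000 bp came RpL6 at 1450 bp upstream, RpS23 at 1610 bp downstream, RpS3 at 1697 bp upstream in Sec13, RpS15Ab at 1786 bp downstream and RpS13 at 1980 bp downstream.

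**Figure D5:**
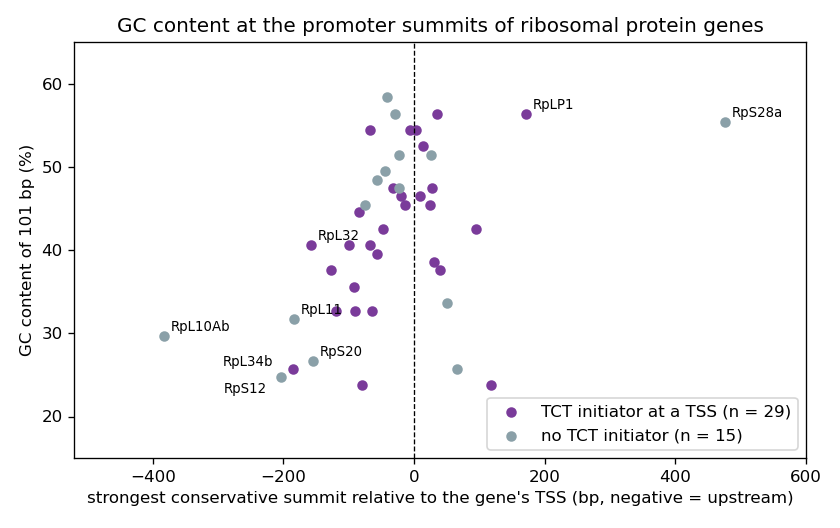
GC content within 50 bp to each side of the strongest conservative summit (y axis, %) against the summit's distance from the gene's TSS (x axis, bp, negative upstream) for the 44 occupied ribosomal protein genes, coloured by whether the gene has a TCT initiator. The 8 summits over 100 bp upstream lie between 24.8% (RpS12) and 40.6% (RpL32) with a median of 30.7%, and the 33 within 100 bp of the start have a median of 45.5%.

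The DNA under the summits was richer in G and C at ribosomal protein genes. GC content of the windows reaching 50 bp to each side had a median of 43.6% at the 44 ribosomal protein genes, against 30.7% at other occupied protein-coding genes and 26.7% at mitochondrial ribosomal protein genes. Position moved with this difference. Windows at the start sites themselves had 45.5% over all 92 genes and 43.6% over other protein-coding genes. For summits within 100 bp of the start the medians were 45.5% at 33 ribosomal protein genes and 37.6% at 981 others, and for summits over 100 bp upstream they were 30.7% at 8 ribosomal protein genes and 28.7% at 1987 others. The part of position in the difference was not tested.

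A TCT initiator, with its C within 5 bp of an annotated start, was found in 55 of 92 ribosomal protein genes (59.8%), against 242 of 13853 other protein-coding genes (1.75%) and 2 of 73 mitochondrial ones. It was present in 29 of the 44 occupied ribosomal protein genes (65.9%) and in 26 of the 48 others (54.2%). Of the 55 with the initiator 29 were occupied (52.7%), and of the 37 without it 15 were (40.5%). Among other protein-coding genes with the initiator, 65 of 242 were occupied (26.9%), near the 23.0% of all other protein-coding genes. RpS20, RpL11, RpL22 and RpS12 are occupied genes without it.

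Motifs were searched on both strands in the windows reaching 50 bp to each side of the strongest summit. Any of 8 motifs occurred in 15 of 44 ribosomal protein windows (34.1%), against 20.0% of the windows at other occupied protein-coding genes. The DRE core ATCGAT, bound by Dref at many housekeeping promoters, made up most of this, with 11 windows (25.0%) against 7.05%. Its windows were those of RpLP0-like, RpS29, RpS25, RpL19, RpL28, RpS28b, RpS7, RpS15Aa, RpL36, RpS24 and RpL37-1. Windows centred on the start sites held it in 21.7% of all 92 ribosomal protein genes and in 13.0% of other protein-coding genes, so the share was also higher where windows were placed without regard to peaks. At mitochondrial ribosomal protein genes it was in 0 of 30 summit windows but in 31.5% of start-site windows. Any of the 8 motifs was in 45.7% of start-site windows of the 92 ribosomal protein genes and 30.8% of those of other protein-coding genes. For mitochondrial ribosomal protein genes the share was 13.3% of summit windows and 53.4% of start-site windows. Summits of the 44 genes lay closer to the start, and the part of position in the motif shares was not tested.

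Motif 1 core GGTCACAC, read by M1BP, occurred in the windows of RpL7, RpLP0 and RpL30 (6.82%, against 1.29%), and the E-box CACGTG, the site of Myc and Max, in that of RpL7 alone (2.27%, against 0.721%). In start-site windows the E-box was found in 8 of 92 ribosomal protein genes (8.7%), against 1.93% of other protein-coding genes, and 6 of the 8 were occupied (RpL11, RpL24, RpL34b, RpL7, RpLP0-like and RpS28b). By the same count 11 of 20 genes with the DRE core, 6 of 11 with the Motif 1 core and 1 of 8 with GAGAG were occupied, beside 47.8% of all 92. Motifs of the kind bound by C/EBP and other leucine zipper factors were rare at ribosomal protein genes and at other occupied protein-coding genes alike. TTGCATCA was found at RpL13 alone (2.27%, against 0.188%), and the C/EBP palindrome TTGCGCAA, the CRE TGACGTCA and the AP-1 site TGANTCA in none of the 44, against 0.219%, 0.188% and 2.16%. GAGAG, the letters of the GAGA factor's site, was also at RpL13 alone, against 9.47% at other protein-coding genes.

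A pair of words was added after earlier results had been seen. GCAACNCT occurred in 6 windows (RpL14, RpL23A, RpL41, RpS27, RpL35 and RpL37-1; 13.6%), against 2.7% at other occupied protein-coding genes. In start-site windows it was in 9.78% of the 92 ribosomal protein genes and 3.3% of other protein-coding genes. At mitochondrial ribosomal protein genes it was in 6.67% of summit windows and in 16.4% of start-site windows, above the cytosolic share there. TTTAAA occurred in 5 windows (RpL11, RpL26, RpL19, RpL28 and RpS24; 11.4%), against 24.2% at other protein-coding genes and 40.0% at mitochondrial ribosomal protein genes. The words were chosen on these peaks, so that their shares are a description only.

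Of the 48 genes without a conservative promoter summit, 42 had a ranked peak within 500 bp, with a median signal of 49.7. RpL13A had a peak of 91.6 at a global IDR of 0.00144, which is below the 0.01 of the thresholded lists, yet the conservative list does not hold it. It had 50.7 in replicate 1 and 40.0 in replicate 2. Strongest of the 42 was RpL23 with 188 at a global IDR of 0.103, above all but 6 of the occupied genes in signal. Replicate 1 held this peak at 143, and replicate 2 held overlapping peaks at it, one of 21.0 with its summit 44 bp away and one of 55.0 with its summit 161 bp away.

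RpS3A, the only ribosomal protein gene on chromosome 4, had 78.4, with 55.2 in replicate 1 and overlapping peaks of 10.9 and 30.4 in replicate 2. RpL4 had 64.2, with 58.5 in replicate 1 and 11.7 in replicate 2. Of the 42, 10 had a global IDR between 0.01 and 0.05 and 31 above 0.05. RpL40, RpS27A and RpS30, which encode fusions with ubiquitin or a like protein, had 18.1, 41.0 and 44.1. RpL10Aa, RpL22-like, RpL29, RpL37-2, RpL38 and RpS2 had no ranked peak within 500 bp.

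Genes that build ribosomes or act at these promoters were also bound in part. Of 31 annotated genes for ribosome assembly, nucleolar proteins and RNA polymerase I, 15 were occupied, beside 23.2% of all protein-coding genes. eIF6, which keeps new large subunits from joining small ones, had the strongest peak at 1236, with its summit 99 bp upstream. Ns2 had 678, NHP2, a protein of the pseudouridylation complex, 324 and Fib, the methyltransferase of box C/D complexes, 119. nop5, Nop56 and Polr1A were among those not occupied. Of 8 factors known or reported at ribosomal protein or housekeeping promoters, 7 were occupied, with Trl at 320, M1BP at 263, Max at 209, Dref at 127, pho at 81.8, Trf2 at 71.9 and E(bx) at 65.1, and Myc was not. The list is short and was chosen by hand, and 23.2% of all protein-coding genes were occupied.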

How the data were processed

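Peaks, not reads, were analysed. Reads were aligned to dm6 and peaks called with a control, per the file notes deposited with the samples, while the sources used here do not name the aligner or the peak caller. The signal column is the authors' own peak value with no stated scaling, used to rank peaks within a list. The score column holds the authors' IDR score, and the deposited ranked lists give the global IDR as -log10. No read depth is known, and precision rests on the 2 replicates. The embryos' age follows the sample description, since the age label holds another number.

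Genes and TSSs came from Ensembl release 115 and sequence from the RefSeq copy of the dm6 genome. A gene's strongest summit within 500 bp gave its signal, and its nearest summit gave its distance. Replicate values are those of the ranked peak holding the conservative summit, nearest summit first. TCT initiators were sought on the gene's strand. Genes described in full were the 12 strongest, the competition, duplicated and stalk genes, and those near the limits. RpL23, RpL13A, RpS3A, RpL4, RpS4 and RpL24 in the replicate comparison were named after their values were seen. Members, lists and motifs were chosen with earlier results of these data known. A few members are counted but not reported by name here. No test was run, since the members are 1 chosen set. The assignment step was tested on simulated data. The tools were pandas 2.3.3 and NumPy 2.4.6 for the joins, matplotlib 3.10.9 for plots, and Python 3.11.15. Alternatives changed the peak list, IDR threshold, distance, TSS choice and window.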

Additional observations from a re-analysis of the deposited data

How the results depend on the processing

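Leaving out a replicate, by taking the other's own list, gave 26 to 44 occupied ribosomal protein genes in place of 44. The median distance to the start site was then -55.5 to -32 bp in place of -30.5 bp, and 16 to 30 nearest summits lay upstream in place of 29. The low counts, 26 and 16, come from replicate 2's list, which holds fewer peaks, and the -55.5 bp comes from replicate 1's list, where the cause was not tested. A 61 bp window, narrower than the one used, left a motif in 9 windows in place of 15, since it covers less sequence. Each result was run under some of the other settings (the second thresholded list, global IDR limits of 0.01 and 0.05, distances of 250 to 2000 bp, the outermost TSS, the nearest gene, peak intervals and a window of 100 bp to each side), which gave 38 to 55 occupied genes, medians of -37 to -23 bp and 15 to 21 windows with a motif. Under these settings 25 to 32 nearest summits lay upstream, the 25 of 44 with the outermost TSS and the 32 of 49 with the second list. No paired analysis was possible because the study has no second group.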

Other observations

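Many ribosomal protein genes host small nucleolar RNAs, guides of RNA modification, in their introns. Of 28 ribosomal protein genes with an annotated snoRNA inside, 18 were occupied (64.3%), among them RpS20, RpL14, RpL23A, RpL22, RpS12 and RpL30. Of the 64 without one, 26 were occupied (40.6%), among them RpL34b, RpL32 and RpL7. The median signal was 96.6 in the hosts and 97.0 in the others. This split was made after the occupied genes were known, and the difference was not tested. By the same rule 23.2% of all protein-coding genes were occupied, and snoRNA hosts outside the ribosomal protein genes were not counted.

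By chromosome arm, 11 of 14 ribosomal protein genes on 3L were occupied, against 24.3% of other protein-coding genes there, and 11 of 23 on 3R, against 23.4%. On X 7 of 14 were, against 21.7%, on 2R 8 of 21, against 22.7%, and on 2L 7 of 19, against 22.8%. The shares were not tested.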
